A study of Mus musculus with 12 samples.

Results

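The response of germ-free ear skin to MC903 was read from 6 of the 12 libraries of the series and from all 24532 genes of the deposited table, of which 16466 had enough reads to be tested. The 6 libraries are bulk RNA sequencing of ear skin from mice raised without a microbiota. Ears of 3 libraries received ethanol, the vehicle, and ears of the other 3 received MC903 dissolved in ethanol, with the replicate labels 1, 4 and 5 in each group. The labels give 5 applications for both treatments, in a wording that leaves the schedule unclear. They name no transgene, mutation, age or sex. The strain reads C57BL/6 for both libraries 1 and for ethanol library 4, and C57BL/7, C57BL/8 and C57BL/9 for MC903 library 4, ethanol library 5 and MC903 library 5. The other 6 libraries are from mice kept specific pathogen free (SPF) under the same treatments. They share the gene filter, the scaling and the estimate of spread, but their values are given only where the responses are compared. Nothing in the labels says that each library is a separate mouse, so p-values here speak of the spread among libraries, which may be technical.

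MC903, also called calcipotriol, is a vitamin D analogue. It binds the vitamin D receptor, which pairs with the retinoid X receptor on DNA, and repeated application to mouse skin is a widely used model of atopic dermatitis. Keratinocytes answer by releasing TSLP, a cytokine that acts on dendritic cells, basophils and other leukocytes, while the epidermis thickens and scales. Epidermis renews itself from basal keratinocytes, which leave the basement membrane, stop dividing, fill with keratin and finally cross-link small proline-rich proteins, late cornified envelope proteins and loricrin into the cornified envelope that seals the skin. Injured or inflamed epidermis changes this programme to one with other keratins, more protease inhibitors and antimicrobial proteins.

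Germ-free totals ran from 40015323 to 41271713 estimated counts with ethanol and from 41813901 to 43404010 with MC903. Values of single libraries are CPM on the TMM-scaled library size, always in the order 1, 4 and 5. Changes are log2 differences of MC903 against ethanol with their SE, and adjusted p comes from edgeR's quasi-likelihood test with Benjamini-Hochberg adjustment over all 16466 genes (n = 3 per group). Below an adjusted p of 0.05, 11274 genes (68.5%) differed, 5497 (33.4%) higher and 5777 (35.1%) lower with MC903, and 2013 (12.2%) rose and 2162 (13.1%) fell at least 2-fold. The counts of each gene group below are to be read against these shares and against the median of all tested genes, -0.07. Without the TMM scaling, on library totals alone, log2 changes are lower by 0.51 in the median, and 2795 genes rose and 9697 fell. Short genes were higher more often than long ones: 63.5% of the shortest decile rose and 8.37% fell, against 11.7% and 63.3% of the longest. Where library totals or removal of the length trend moved the share of higher among the called genes of a group by over 10 percentage points, those counts follow in the same order, as do length-adjusted medians that moved over 1.5-fold. In bulk skin a change in the number of cells of a type and a change in RNA per cell cannot be told apart, which holds for each result below. Treatment separated the 6 libraries on the first principal component (77.8% of the variance). On the second, with 8.3%, MC903 library 4 lay at -47.1, against 22.3 and 24.8 for the other MC903 libraries. The tissue label was checked against markers. Keratinocyte markers (6, of which 4 rose) summed to 26480 to 30080 CPM with ethanol and 58010 to 59060 with MC903, and fibroblast markers (5, all lower) to 6270 to 7469 and 3739 to 4902. All 4 Schwann cell and all 4 muscle markers fell, and 3 of 4 endothelial markers fell. The B cell marker Ms4a1 and the cartilage marker Matn1 were at 0 in every germ-free library, for which they are named. The 3 cartilage markers together still summed to 251.6 to 282.8 CPM with ethanol and 199.4 to 211.4 with MC903. The 3 B cell markers summed to 0.504 to 0.602 and 0.612 to 1.26. The part of such shifts in the groups below was not tested.

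**Figure D1:**
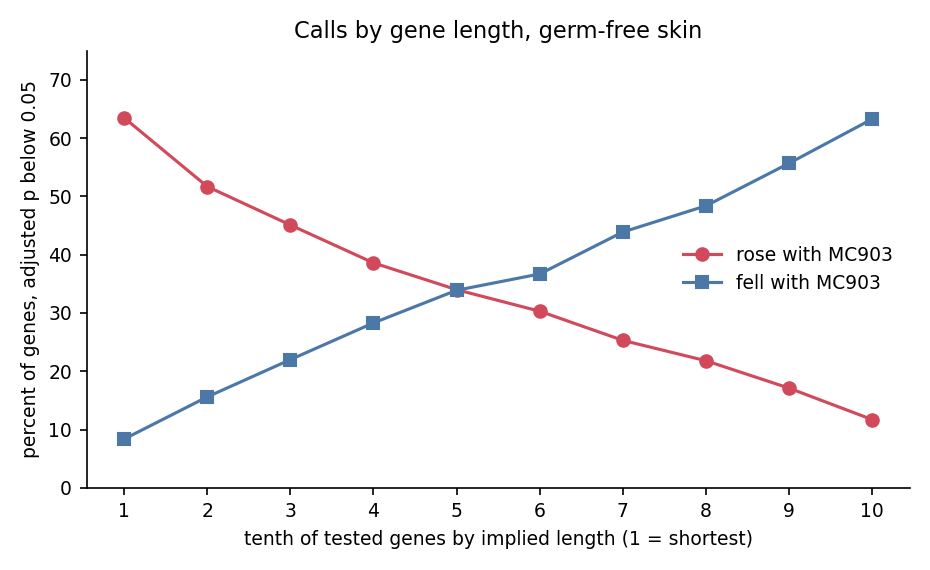
Share of genes that rose or fell with MC903 at adjusted p below 0.05, in deciles of all tested genes from the shortest to the longest, as points joined by lines. The share that rose falls from 63.5% in the shortest decile to 11.7% in the longest, and the share that fell goes from 8.37% to 63.3%.

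Because 3 sets of genes moved mostly in one direction, the sequence before their start sites is shown here ahead of the values, from RefSeq on GRCm38.p6 (mm10). The stretches below lie 200 to 101 bases before the start of 3 small proline-rich genes, and the capitals mark TGANTCA, the site bound by AP-1 (FOS and JUN proteins). They cover chr3:92316505-92316604 (plus strand) for Sprr2b, chr3:92432382-92432481 (plus strand) for Sprr2k and chr3:92485982-92486081 (minus strand) for Sprr1a.
Sprr2b: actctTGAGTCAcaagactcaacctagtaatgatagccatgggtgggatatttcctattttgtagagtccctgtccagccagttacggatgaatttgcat
Sprr2k: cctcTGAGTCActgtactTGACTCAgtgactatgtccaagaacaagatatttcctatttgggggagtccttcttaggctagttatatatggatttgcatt
Sprr1a: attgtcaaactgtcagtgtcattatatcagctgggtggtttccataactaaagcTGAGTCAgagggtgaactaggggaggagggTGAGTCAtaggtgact
Of 14 promoters of the small proline-rich list, 9 (64.3%) held TGANTCA on either strand between 250 bases before and 50 after the start, against 7.81% of all promoters of that length. In the Sprr2 promoters that held it, a site began at nearly the same place, from -198 (Sprr2h) to -193 (Sprr2d). These copies are similar in sequence, so their promoters are not independent. Among genes that rose or fell at least 2-fold the shares were 8.62% and 6.02%.

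The next 3 stretches are the 100 bases before the start of mitotic genes, with TTTGAA, the cell cycle genes homology region (CHR), and CCAAT, the NF-Y box, in capitals on whichever strand they occur (TTCAAA and ATTGG are their reverse complements). They cover chr2:164769829-164769928 (plus strand) for Ube2c, chr10:69352913-69353012 (minus strand) for Cdk1 and chr4:118437344-118437443 (minus strand) for Cdc20.
Ube2c: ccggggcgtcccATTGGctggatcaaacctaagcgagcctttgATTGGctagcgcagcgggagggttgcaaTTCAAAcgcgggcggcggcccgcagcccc
Cdk1: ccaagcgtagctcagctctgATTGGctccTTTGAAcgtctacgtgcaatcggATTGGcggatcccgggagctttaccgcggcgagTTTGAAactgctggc
Cdc20: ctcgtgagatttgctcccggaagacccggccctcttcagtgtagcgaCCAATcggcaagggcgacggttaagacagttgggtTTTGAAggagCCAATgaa
TTTGAA was in 23 of 29 promoters of the mitosis list (79.3%) and in 17.9% of all promoters. CCAAT was in 22 of the 29 (75.9%) and in 37.4% of all. The last stretch, chr4:151044786-151044885 (minus strand), lies before the start of the clock gene Per3 and holds the D-box TTATGTAA, bound by DBP, TEF, HLF and NFIL3, at 2 places.
Per3: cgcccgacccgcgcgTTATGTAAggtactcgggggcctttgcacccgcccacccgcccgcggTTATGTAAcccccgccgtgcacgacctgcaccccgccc
The D-box, searched as TTACGTAA or TTATGTAA on both strands, was in this 1 of 20 clock promoters (5.0%) and in 1.06% of all. The E-box CACGTG, bound by CLOCK and BMAL1, was in 4 of these 20 and in 7.15% of all. The 20 promoters belong to 13 genes. No 2 motifs marked in a printed stretch overlap, and a match describes the letters only.

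In the vitamin D group 2 genes stood among the largest rises, while the receptor itself did not pass the test. Cyp24a1 (gene 13081, chromosome 2, 170482957 to 170497145), the enzyme that degrades active vitamin D, measured 59.4, 83.3 and 50.8 CPM with ethanol and 3764, 3917 and 4551 CPM with MC903 (log2 change 5.98, SE 0.39, adjusted p = 6.8e-08). Vdr, the receptor, measured 67, 65.5 and 65.8 CPM with ethanol and 61.9, 63.1 and 61.2 CPM with MC903 (log2 change -0.09, SE 0.06, adjusted p = 0.17). The libraries of Cyp24a1 did not overlap between groups, and neither did those of Vdr. The sign of Vdr depended on the scaling: it fell on library totals (-0.6, adjusted p = 1.9e-06, edgeR) and rose with the length trend removed (0.22). Of 16 members tested, 3 rose and 5 fell, with a median of -0.19, shares no higher than those over all genes (2 and 10 on library totals and 5 and 3 with the length trend removed, where the median was 0.01). Besides Cyp24a1, the risers were S100g, a calcium-binding protein, at 0, 0.127 and 0.084 CPM with ethanol and 26.7, 30.4 and 27.2 CPM with MC903 (log2 change 8.61, SE 0.37, adjusted p = 3.8e-09, between 8.02 and 9.34 when single ethanol libraries were left out), and Atp2b1, a calcium pump, by 0.59, which on library totals did not pass (0.08, adjusted p = 0.57, edgeR). Cyp27a1, a mitochondrial hydroxylase that can activate vitamin D, measured 16.5, 13.3 and 13.2 CPM with ethanol and 5.02, 5.11 and 6.62 CPM with MC903 (log2 change -1.36, SE 0.17, adjusted p = 1.4e-05), with no overlap. Cubn, an endocytic receptor that takes up vitamin D with its binding protein, fell by 1.44 and Pthlh, parathyroid hormone-related protein, by 0.85. The DR3 motif, a direct repeat bound by the receptor pair, was in 18.2% of 22 promoters of this list and in 13.2% of all promoters. It was in 12.9% of promoters of genes that rose at least 2-fold and in 17.8% of those that fell as much. None of the 4 list promoters with it belonged to a gene that rose, and Cyp24a1 had no promoter in the set searched.

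Cornified envelope genes were among the largest rises. Of 15 small proline-rich genes tested, 14 rose and 1 fell, with a median log2 change of 6.86, and the counts were the same on library totals. These are short proteins that transglutaminases cross-link into the envelope, and the Sprr2 copies are similar enough that the counting may divide reads between them. Sprr2a1 measured 8.22, 14.1 and 9.17 CPM with ethanol and 8656, 8485 and 9653 CPM with MC903 (log2 change 9.73, SE 0.33, adjusted p = 6.2e-10). Sprr1a, the member of highest FPKM before treatment, measured 107, 120.4 and 121 CPM with ethanol and 983, 1072 and 966 CPM with MC903 (log2 change 3.11, SE 0.11, adjusted p = 9.9e-10). Treated libraries lay within a narrow band in both genes and far above the ethanol libraries. Sprr1b and Sprr2h rose by 7.38 and 6.97. Sprr2b, whose promoter is shown above, had 0.0602, 0.972 and 0.504 CPM with ethanol and 559, 631 and 559 CPM with MC903 (log2 change 10.16, SE 0.44, adjusted p = 3.3e-09), and its change was 11.04 without ethanol library 4. Sprr2k had 0, 0 and 0.042 CPM with ethanol and 9.99, 14.5 and 9.74 CPM with MC903 (log2 change 9.41, SE 0.55, adjusted p = 3.1e-08), which rests on 2 ethanol counts and was 11.92 without ethanol library 5. Sprr2a2 was the uneven member, at 478, 59.5 and 91.5 CPM with MC903, and its change of 4.93 became 3.46 without MC903 library 1. The one that fell, Sprr4, was scarce at 0.822, 0.76 and 1.05 CPM with ethanol and 0.426, 0.111 and 0.344 CPM with MC903 (log2 change -1.57, SE 0.49, adjusted p = 0.012).

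Late cornified envelope genes rose almost as a whole family, 20 of 21 with a median of 2.18 (1.36 with the length trend removed) and 1 that fell. Within it the Lce3 genes, known for their induction in injured and psoriatic epidermis, moved from low levels. The highest of those named here, Lce3c, measured 4.13, 7.73 and 8.46 CPM with ethanol. Lce3d measured 0.702, 2.41 and 3.21 CPM with ethanol and 215, 227 and 184 CPM with MC903 (log2 change 6.63, SE 0.38, adjusted p = 2.6e-08). Lce1a1, one of the Lce1 genes of healthy upper epidermis, measured 518, 626 and 555 CPM with ethanol and 2964, 2344 and 2369 CPM with MC903 (log2 change 2.18, SE 0.12, adjusted p = 2e-08). Lce3e, Lce3f, Lce3a and Lce3c rose by 6.14, 6.11, 5.79 and 5.44, whereas Lce1b and Lce1a2 rose by 1.99 and 1.91. In FPKM, which allows levels of different genes to be compared, Lce3d went from 4.33 to 302 and Lce1a1 from 927 to 2927, so Lce1a1 stayed the more abundant.

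Scaffold proteins of the envelope and of keratohyalin followed, with 16 of 20 higher, 3 lower and a median of 1.33. Rptn, a filaggrin-like protein of the envelope, measured 10.5, 18.9 and 15.7 CPM with ethanol and 1327, 1191 and 1504 CPM with MC903 (log2 change 6.48, SE 0.24, adjusted p = 1.2e-09). Tchhl1, a trichohyalin-like member of the same gene cluster, measured 0.361, 0.232 and 0.21 CPM with ethanol and 50.6, 46.3 and 48.1 CPM with MC903 (log2 change 7.47, SE 0.25, adjusted p = 6.2e-10). Cnfn (cornifelin) rose by 3.09, Cdsn (corneodesmosin, which holds corneocytes together) by 2.4, Casp14 (the caspase that processes filaggrin) by 2.09 and Lor (loricrin) by 1.26. Flg2, filaggrin-2, measured 508, 491 and 506 CPM with ethanol and 121, 137 and 94.2 CPM with MC903 (log2 change -2.09, SE 0.17, adjusted p = 3.4e-07). Periplakin (Ppl) and sciellin (Scel) fell by 0.98 and 0.74.

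**Figure D2:**
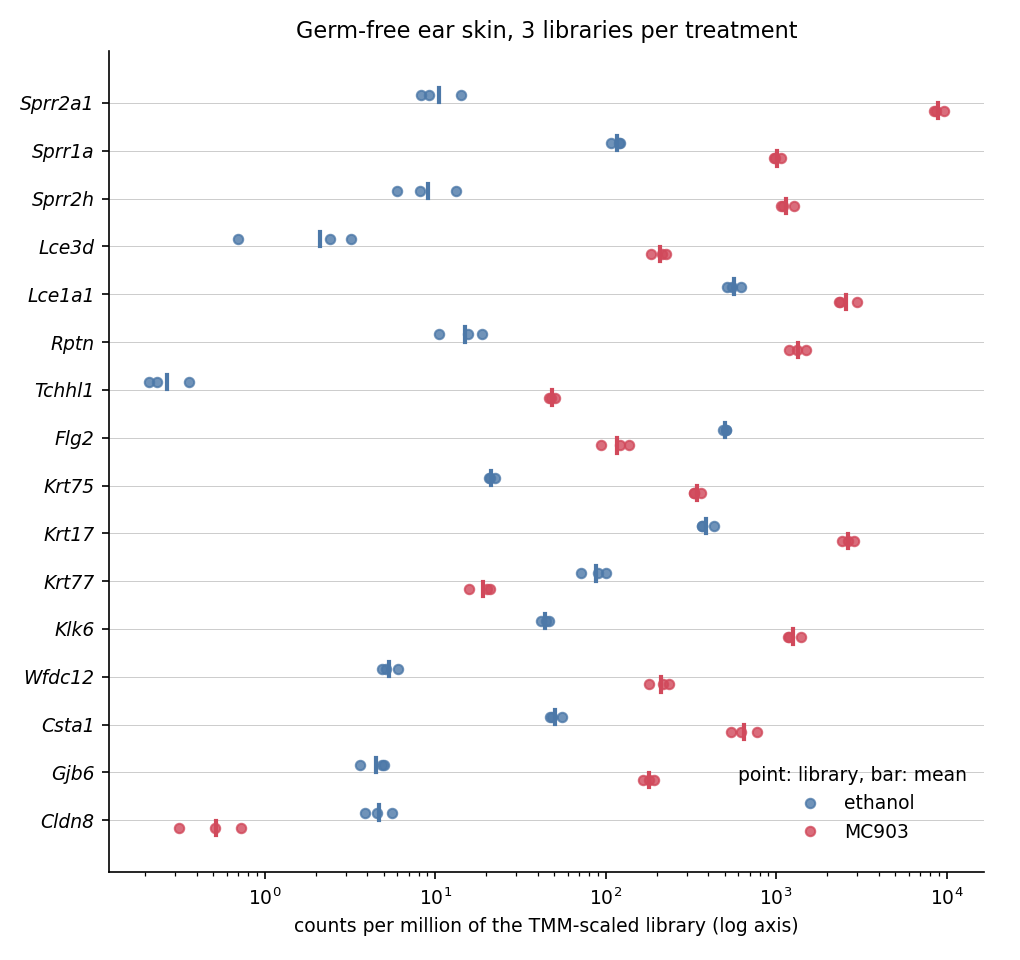
CPM on a log axis in each germ-free library for 16 members of the cornified envelope, keratin, protease inhibitor and junction groups, ethanol and MC903 libraries in different colours, each point 1 library and each bar the mean of 3. For every gene drawn the MC903 libraries lie clear of the ethanol libraries, above them except in Flg2, Krt77 and Cldn8.

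Keratins differed by type. All 5 genes of the wound keratin list, which sets Krt75 beside keratins of hyperproliferative epidermis, rose (median 5.07). Krt75 measured 20.7, 22.3 and 21.1 CPM with ethanol and 362, 330.5 and 332 CPM with MC903 (log2 change 4, SE 0.1, adjusted p = 1.5e-10). Krt17 measured 368, 431 and 368 CPM with ethanol and 2643, 2449 and 2844 CPM with MC903 (log2 change 2.77, SE 0.11, adjusted p = 2.1e-09). The groups were far apart in both. Among 17 epidermal keratins 7 rose and 4 fell, but 4 and 7 on library totals. Krt14 of the basal layer measured 4923, 5870.4 and 5126 CPM with ethanol and 19546, 19792 and 20268 CPM with MC903 (log2 change 1.9, SE 0.11, adjusted p = 3.4e-08) and Krt1 of the spinous layer rose by 1.73. Their partners moved less: Krt5 rose by 0.76 and Krt10 by 0.67, and on library totals neither passed (0.25, adjusted p = 0.078, and 0.16, adjusted p = 0.29, edgeR). Krt77, a suprabasal keratin, measured 100.5, 90.7 and 71.4 CPM with ethanol and 21.1, 20.2 and 15.8 CPM with MC903 (log2 change -2.2, SE 0.4, adjusted p = 0.00037).

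Proteases of shedding and their inhibitors rose together. In the group of kallikreins, matriptase, prostasin and inhibitors, 22 of 24 tested genes rose and none fell (median 1.94), while 2 did not pass (17 and 3 on library totals). Klk6 measured 46.3, 41.8 and 44.8 CPM with ethanol and 1184, 1177 and 1398 CPM with MC903 (log2 change 4.82, SE 0.12, adjusted p = 1.5e-10), and Klk12 and Klk13 rose by 4.93 and 4.53. Wfdc12, a whey-acidic-protein inhibitor, measured 5.15, 4.9 and 6.07 CPM with ethanol and 218, 179 and 237 CPM with MC903 (log2 change 5.3, SE 0.26, adjusted p = 8.7e-09). Stefins, inhibitors of cathepsins, rose in 9 of 12 cases and fell in none (median 4.55), against 9 and 2 on library totals and 9 and 3 with the length trend removed. Csta1 measured 47.5, 55.3 and 48.6 CPM with ethanol and 543, 774 and 622 CPM with MC903 (log2 change 3.68, SE 0.15, adjusted p = 2.6e-09), and Cst6, cystatin M/E, rose by 1.16. The Stfa copies are near-identical, and their single values are uncertain. Clade B serpins moved both ways, with 7 of 19 higher and 4 lower (5 and 10 on library totals). Serpinb6c and Serpinb11 rose by 1.98 and 1.53, and Serpinb7, an epidermal protease inhibitor, fell by 1.22.

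Genes of cell contacts differed by kind. Of 11 connexin and pannexin genes 7 were higher and 2 lower (5 and 4 on library totals and 6 and 3 with the length trend removed). Gjb6 (connexin 30, gene 14623, chromosome 14, 57123301 to 57133611) measured 3.63, 5.03 and 4.91 CPM with ethanol and 180.1, 166 and 191 CPM with MC903 (log2 change 5.31, SE 0.15, adjusted p = 2.3e-10). Gjb2 (connexin 26) measured 13.8, 14.7 and 19 CPM with ethanol and 305, 287 and 317 CPM with MC903 (log2 change 4.26, SE 0.13, adjusted p = 2.8e-10). No ethanol library came near a treated one. Panx1, a channel for ATP release, rose by 2.05 and Gja1 (connexin 43) by 1.27, while Panx3 fell by 0.84. Tight junctions ran the opposite way, with 12 of 17 members lower and 3 higher (median -0.54). Cldn8 measured 5.57, 4.56 and 3.86 CPM with ethanol and 0.511, 0.723 and 0.315 CPM with MC903 (log2 change -3.17, SE 0.25, adjusted p = 2.8e-07). Ocln (occludin) measured 26, 23 and 25.1 CPM with ethanol and 12.7, 10.3 and 12.6 CPM with MC903 (log2 change -1.06, SE 0.09, adjusted p = 7.6e-07). Marveld2 (tricellulin) and Cldn3 fell by 1.44 and 1.02, while Cldn4 rose by 1.25 and F11r by 1.18. Desmosome genes did not share a direction (7 of 15 higher and 4 lower, and 4 and 7 on library totals). The plakophilin Pkp3 measured 415, 459.9 and 468 CPM with ethanol and 965, 834 and 972 CPM with MC903 (log2 change 1.04, SE 0.08, adjusted p = 2.9e-07). The cadherin Dsc3 measured 786, 738 and 812 CPM with ethanol and 405, 444 and 399 CPM with MC903 (log2 change -0.9, SE 0.15, adjusted p = 0.00014). Desmogleins parted: Dsg1b rose by 0.84 and Dsg1a and Dsg1c, close copies that the counting may mix, fell by 1.09 and 1.32.

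At the basement membrane 13 of 20 laminin and integrin genes fell and 4 rose, but with the length trend removed the counts were 7 and 7, and on library totals 16 and 2. Itgb6, an integrin chain of wound edges, measured 4.05, 4.08 and 4.03 CPM with ethanol and 33.2, 31.4 and 39.8 CPM with MC903 (log2 change 3.1, SE 0.15, adjusted p = 6.5e-09). Itga2 and Lama3, a collagen receptor and a laminin-332 chain, fell by 2.05 and 1.02.

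Among 26 transcription factors of epidermal differentiation, 13 rose and 9 fell, but 7 and 16 on library totals and 14 and 4 with the length trend removed. Elf3, an epithelial ETS factor, measured 1.66, 0.993 and 1.6 CPM with ethanol and 42.1, 51.9 and 45.1 CPM with MC903 (log2 change 5.03, SE 0.26, adjusted p = 1.2e-08). Its relatives Elf5 and Ehf rose by 2.8 and 1.88, and Hopx, Barx2 and Ovol1 by 1.36, 1.32 and 1.18. Klf5 measured 49.4, 40.2 and 50.4 CPM with ethanol and 20.7, 17.2 and 19.3 CPM with MC903 (log2 change -1.29, SE 0.14, adjusted p = 4.4e-06). Treated libraries of Elf3 lay above, and those of Klf5 below, every ethanol library. In 3 signalling pathways of the basal layer and follicle more genes fell than rose. In the Notch pathway 12 of 18 fell and 3 rose (median -0.6), against 14 and 1 on library totals and 8 and 3 with the length trend removed (median -0.15). In the Wnt pathway 31 of 45 fell and 2 rose. In the Hedgehog pathway 6 of 10 fell and none rose, against 4 and 1 with the length trend removed. The ligands Dll1 and Jag2 fell by 1.41 and 1.15, and the receptor Notch3 by 0.73. Axin2, a standard Wnt target, measured 63.2, 54.5 and 66.3 CPM with ethanol and 22, 19.5 and 21.3 CPM with MC903 (log2 change -1.55, SE 0.1, adjusted p = 5.8e-08), and Lgr6, a stem cell receptor for R-spondins, fell by 2.59. Wnt4 was one of the Wnt genes that rose, by 1.07, and Wnt10a the other, by 0.89. Gli1, the target that reads Hedgehog activity, measured 17.8, 14.2 and 15.2 CPM with ethanol and 6.61, 5.81 and 6.65 CPM with MC903 (log2 change -1.31, SE 0.13, adjusted p = 1.9e-06), and Ptch1 fell by 1.17. Treated libraries were lower than every ethanol library in both targets. In the BMP and TGF-beta pathway 14 of 29 fell and 7 rose (21 and 5 on library totals and 12 and 10 with the length trend removed). The ligand Bmp2 measured 23.7, 23.9 and 23.2 CPM with ethanol and 84.1, 82 and 91.4 CPM with MC903 (log2 change 1.86, SE 0.12, adjusted p = 6.9e-08), and the target genes Id1, Id2 and Id3 rose by 1.38, 0.95 and 1.79. The ligands Bmp6, Bmp5 and Tgfb3 fell by 1.62, 1.37 and 1.12, so ligands of the family moved in both directions.

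Most cell division genes rose. All 32 mitosis genes passed upward with MC903 (median 1.77, and 28 of them on library totals), and 29 of 33 replication genes rose with none lower (20 and 3 on library totals). Ube2c, which marks mitotic cyclins for destruction, measured 10.01, 13.6 and 8.44 CPM with ethanol and 77.8, 80.7 and 84.6 CPM with MC903 (log2 change 2.92, SE 0.16, adjusted p = 1.8e-08). Cdk1, the mitotic kinase, measured 17.7, 23.4 and 15.3 CPM with ethanol and 101, 97.4 and 95.2 CPM with MC903 (log2 change 2.38, SE 0.13, adjusted p = 2e-08). Cdc20, the activator of the same destruction complex, measured 21.1, 31.6 and 20.6 CPM with ethanol and 126, 117 and 124 CPM with MC903 (log2 change 2.32, SE 0.16, adjusted p = 1.1e-07). These are the 3 genes whose promoters are printed above, and in each the lowest treated library exceeded the highest ethanol one. With the length trend removed the mitosis median was 1.95, with all 32 higher. D-type cyclins, which drive entry into the cycle, moved both ways. Ccnd2 measured 289.7, 274 and 309 CPM with ethanol and 101, 106 and 102 CPM with MC903 (log2 change -1.5, SE 0.09, adjusted p = 5e-08) and Ccnd3 rose by 1.03. Gadd45a, a stress gene that restrains the cycle, rose by 2.09 and Rbl2, a pocket protein of resting cells, fell by 1.08.

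Genes for making and degrading proteins and for respiration rose as groups. Of 86 cytosolic ribosomal protein genes 83 rose (median 1.14), of 38 proteasome genes 37 and of 79 respiratory chain genes 71, and with the length trend removed the medians were 0.38, 0.58 and 0.32. None of the respiratory chain genes fell, against 53 and 7 with the length trend removed. Rpl41 rose by 2.11 and Rpl22l1 by 1.99. Ribosomal protein genes have many near-identical pseudogenes, and counts of single members are uncertain. Rps27 rested on MC903 library 4, the one that stood apart: it measured 5.27, 6.48 and 5.71 CPM with ethanol and 11.4, 809 and 11.9 CPM with MC903, and its change of 5.57 became 1.0 without that library. Of 33 glycolysis and hypoxia genes 19 rose and 6 fell (15 and 11 on library totals). Ldha, which makes lactate, measured 439, 496 and 434 CPM with ethanol and 1784, 1639 and 1766 CPM with MC903 (log2 change 1.92, SE 0.08, adjusted p = 2.5e-09). Slc16a3, the lactate exporter, measured 9.06, 9.34 and 10.2 CPM with ethanol and 35.7, 39 and 33 CPM with MC903 (log2 change 1.91, SE 0.12, adjusted p = 3.9e-08). Their isoforms Ldhb and, for enolase, Eno2 fell by 0.7 and 1.04. In the unfolded protein and integrated stress response 24 of 29 rose and 1 fell (median 1.26, and 20 and 4 on library totals): Chac1 by 3.34, Asns by 2.44, Trib3 by 2.11, Atf4 by 1.63 and the chaperone Hspa5 by 1.47.

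Members of the EGF receptor system moved in both directions. Of 18 tested, 4 rose and 7 fell (3 and 13 on library totals and 7 and 4 with the length trend removed). Epgn (epigen) measured 1.02, 1.2 and 1.2 CPM with ethanol and 54.3, 55.8 and 63.9 CPM with MC903 (log2 change 5.67, SE 0.23, adjusted p = 2.6e-09). Nrg1 (neuregulin-1) measured 0.16, 0.169 and 0.294 CPM with ethanol and 2.19, 2.83 and 1.95 CPM with MC903 (log2 change 3.47, SE 0.42, adjusted p = 1.2e-05). Erbb3, the receptor for neuregulins, measured 57.5, 46.6 and 59.1 CPM with ethanol and 15.3, 15.3 and 17.3 CPM with MC903 (log2 change -1.77, SE 0.17, adjusted p = 1.8e-06), and Lrig1, a brake on these receptors, fell by 1.59. The ligand Egf fell too, by 1.41. Junb, Fosl1 and Fos rose by 2.01, 2.22 and 1.16, within a list of AP-1, EGR and other immediate early genes of which 13 of 20 rose and 2 fell (8 and 5 on library totals).

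Of 83 antimicrobial genes listed, 28 had enough reads to test, and 16 of these rose and 5 fell (median 1.2), against 15 and 10 on library totals and 13 and 10 with the length trend removed (median 0.49). Defb14, a beta-defensin, measured 1.68, 2.26 and 2.75 CPM with ethanol and 73.4, 138 and 62.7 CPM with MC903 (log2 change 5.36, SE 0.32, adjusted p = 3.4e-08), and Ang2, an angiogenin ribonuclease, rose by 4.23. Rnase4, another secreted ribonuclease, fell by 0.95. Of 15 S100 genes 13 were higher and 2 lower (median 1.47). With the length trend removed 10 rose and 4 fell (median 0.65). S100a6, an abundant one, measured 364, 439 and 419.5 CPM with ethanol and 1462, 1842 and 1487 CPM with MC903 (log2 change 1.97, SE 0.14, adjusted p = 1.8e-07). Sensors of microbes were mixed, with 8 of 31 higher and 9 lower, about the shares over all genes (6 and 16 on library totals). Myd88, the shared adaptor, rose by 1.1 and Nod2 by 1.65, while Tlr5, the flagellin receptor, measured 6.8, 5.6 and 5.69 CPM with ethanol and 0.994, 0.834 and 0.544 CPM with MC903 (log2 change -2.93, SE 0.28, adjusted p = 1.8e-06) and Tlr7 fell by 1.67. Naip1, an inflammasome sensor, had no read in any ethanol library and 7.47, 4.92 and 6.73 CPM after treatment. Set against the limit that 0 reads allow (3 counts over the 3 ethanol libraries), this is at least 308-fold higher.

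Cytokine and receptor genes did not move in one direction. In the IL-1 and IL-36 family 8 of 18 rose and 5 fell, and 6 and 8 on library totals: Il1a rose by 1.09 and Il18 by 0.93, and Il1f10 and Il1rl2 fell by 1.72 and 1.29. Il22ra2, the soluble decoy for IL-22, measured 7.64, 5.66 and 7.73 CPM with ethanol and 0.994, 1.7 and 1.58 CPM with MC903 (log2 change -2.3, SE 0.3, adjusted p = 2.3e-05). Tslp itself measured 1.8, 3.72 and 2.02 CPM with ethanol and 917, 917 and 1154 CPM with MC903 (log2 change 8.63, SE 0.25, adjusted p = 2.5e-10). Its receptor chain Crlf2 rose by 0.85 and Il2rg, the common gamma chain, by 1.05, and neither Tslp nor Il22ra2 had overlapping libraries. In the list of alarmins, such as Tslp, and their receptors, 3 of 7 tested genes rose and 4 fell (median -0.53). With the length trend removed 3 of that list rose and 2 fell. Il6ra measured 58.7, 54.7 and 62.9 CPM with ethanol and 13, 13.4 and 10.7 CPM with MC903 (log2 change -2.25, SE 0.15, adjusted p = 9.6e-08), and Il31ra and Lifr fell by 1.73 and 1.31. Downstream, Stat3 rose by 1.01 and Stat5b fell by 0.68. Bcl3, a nuclear partner of NF-kB, measured 5.11, 5.68 and 5.77 CPM with ethanol and 64, 57.7 and 71.1 CPM with MC903 (log2 change 3.54, SE 0.18, adjusted p = 9.8e-09). Tnfrsf12a, the TWEAK receptor, rose by 1.75 and Tnfrsf11b, the decoy osteoprotegerin, measured 10.6, 8.47 and 10.6 CPM with ethanol and 1.7, 2.08 and 1.92 CPM with MC903 (log2 change -2.38, SE 0.16, adjusted p = 7.2e-08). In both genes the groups lay well apart.

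Neutrophil attractants and markers rose in 15 of 18 cases (median 2.49). The 6 neutrophil markers used to check cell types, of which stressed keratinocytes also make S100a8 and S100a9, summed to 4.33 to 9.41 CPM with ethanol and 77.8 to 137.5 with MC903. Those genes carried 78.9% to 85.9% of the sum with MC903, and the other 4 markers summed to 3.55 to 6.61 CPM with ethanol and 16.04 to 19.3 with MC903. Attractants of monocytes and eosinophils rose in 12 of 19 cases and fell in 1 (9 and 4 on library totals). Ccl2 measured 1.72, 2.77 and 2.98 CPM with ethanol and 18.6, 9.67 and 9.8 CPM with MC903 (log2 change 2.35, SE 0.35, adjusted p = 6.5e-05), and Ccl7 rose by 2.72. The 4 eosinophil markers stayed under the read limit and summed to at most 0.167 CPM. The 2 basophil markers rose from 0.21 to 0.296 CPM summed to 4.54 to 7.36. Among mast cell and basophil genes 8 of 21 rose and 6 fell (6 and 11 on library totals and 6 and 8 with the length trend removed). Of the 5 mast cell markers 3 rose and 1 fell, and they summed to 251 to 287.2 CPM with ethanol and 351 to 383.2 with MC903. Within that list the receptor genes Mrgprb2 and Mrgprb1 fell by 1.94 and 1.32 while the histamine-forming Hdc rose by 1.86. Macrophage markers rose in 14 of 21 cases on the TMM scale but in 5 on library totals, where 6 fell, and 4 fell on TMM. Fcgr1 rose by 1.98 and Mertk fell by 1.73 on TMM, and on library totals these changes were 1.47 and -2.25. Of 22 complement genes 6 rose and 11 fell (5 and 16 on library totals): C1qa, a chain of C1q, and Cfp, properdin, rose by 1.31 and 1.85, and the inhibitor Cd55 fell by 1.45. Among resident and cytotoxic lymphocyte genes 2 of 17 rose and 6 fell, the latter about the share over all genes (1 and 13 on library totals), with Gzmb (granzyme B) up by 2.57 and Itgae (CD103) down by 1.

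Interferon-stimulated genes divided. Of 31 type I interferon-stimulated genes 14 rose and 6 fell (9 and 10 on library totals), with Isg15 up by 1.92 and Ifit2 down by 1.65. Of 18 guanylate-binding proteins and immunity-related GTPases 11 fell and none rose, and on library totals all 18 fell. Gbp4 measured 6.56, 5.18 and 7.08 CPM with ethanol and 1.39, 2.14 and 2.29 CPM with MC903 (log2 change -1.69, SE 0.21, adjusted p = 1.6e-05), and Gbp9 fell by 2.08.

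**Figure D3:**
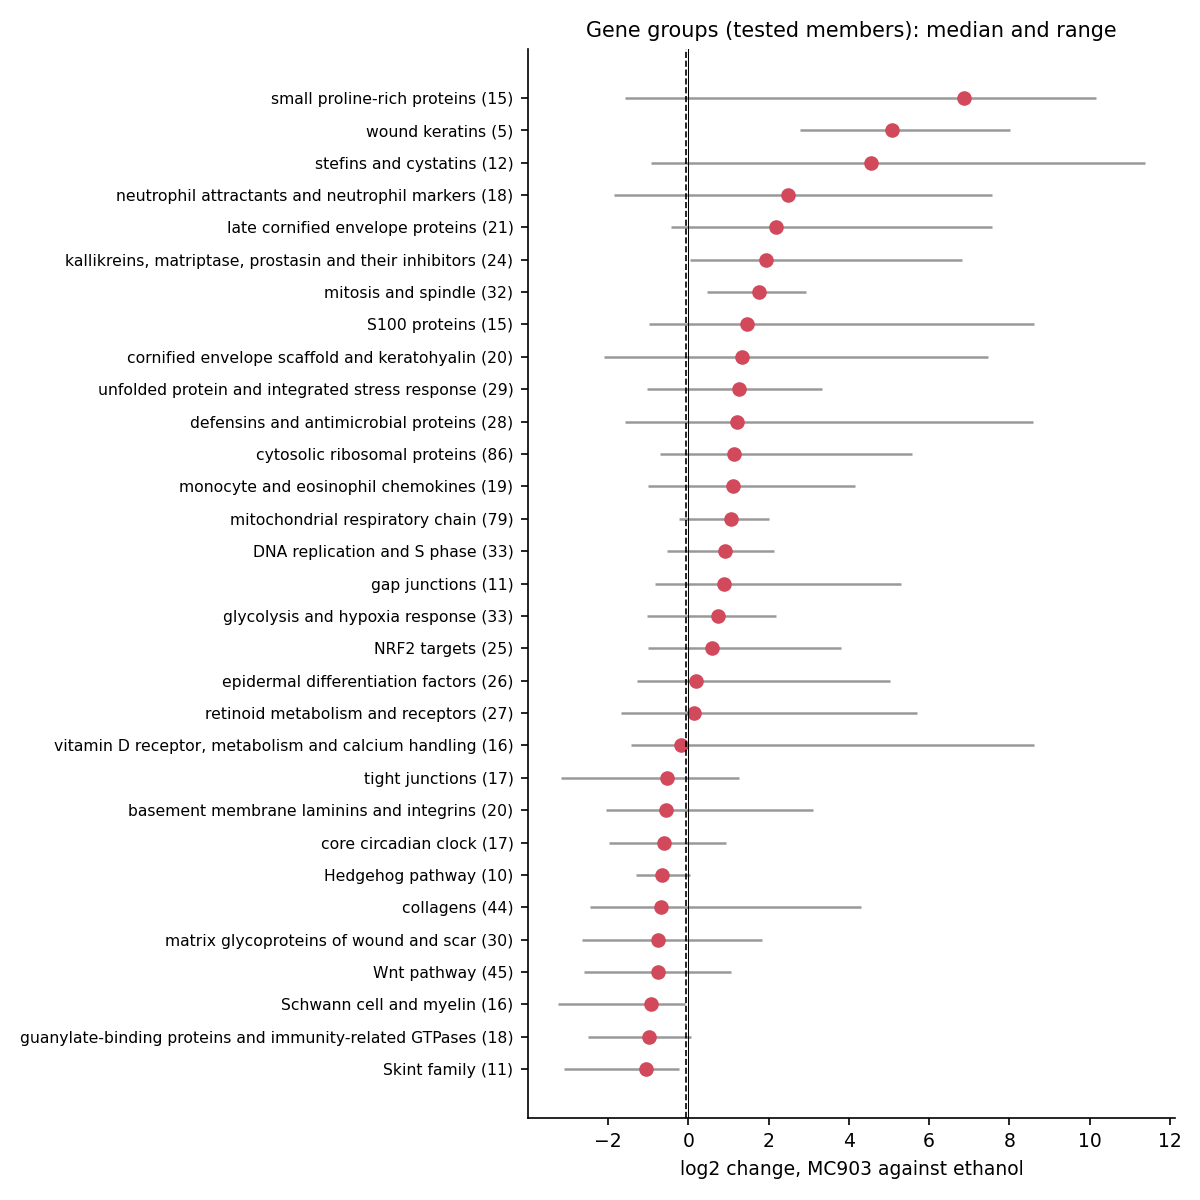
Median log2 change with MC903 in germ-free skin for 31 gene groups (filled points) with the range from the lowest to the highest tested member (lines), ordered by the median, and the median of all tested genes as a dashed line at -0.07. Small proline-rich proteins, wound keratins and stefins lie at the top and Skint, guanylate-binding proteins and Schwann cell genes at the bottom.

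In fatty acid synthesis and elongation 14 of 22 fell and 5 rose (17 and 2 on library totals and 10 and 6 with the length trend removed). Scd1, a desaturase rich in sebaceous glands, measured 4996, 4345 and 4801 CPM with ethanol and 1645, 1983 and 1728 CPM with MC903 (log2 change -1.4, SE 0.11, adjusted p = 2.1e-07), and Acacb and Elovl5 fell by 1.47 and 1.59. Elovl7 rose by 1.26. Fabp5, the fatty acid carrier of stressed keratinocytes, measured 579.7, 515 and 496 CPM with ethanol and 3763, 3887 and 4079.7 CPM with MC903 (log2 change 2.88, SE 0.1, adjusted p = 7.9e-10). Degs2, which makes phytoceramides, measured 12.6, 14.8 and 14.3 CPM with ethanol and 117, 109 and 105 CPM with MC903 (log2 change 2.99, SE 0.09, adjusted p = 2.5e-10). The treated libraries of both stood far above the ethanol libraries. Of 28 lipoxygenase, cyclooxygenase and prostaglandin genes 16 rose and 6 fell (8 and 11 on library totals and 14 and 9 with the length trend removed). Ptgs2, cyclooxygenase-2, measured 0.321, 0.253 and 0.462 CPM with ethanol and 15.4, 19.4 and 15.7 CPM with MC903 (log2 change 5.6, SE 0.26, adjusted p = 5.4e-09). Alox8, an arachidonate lipoxygenase, measured 1.3, 0.782 and 1.51 CPM with ethanol and 19.3, 19.1 and 21 CPM with MC903 (log2 change 4.04, SE 0.23, adjusted p = 2.9e-08). Hpgd, which inactivates prostaglandins, fell by 1.64. The aryl hydrocarbon receptor and its targets fell in 7 of 10 cases and rose in 1 (9 and 0 on library totals): Ahr measured 45.7, 38.6 and 46.1 CPM with ethanol and 13.6, 16.5 and 13.2 CPM with MC903 (log2 change -1.59, SE 0.13, adjusted p = 5.4e-07) and its repressor Ahrr fell by 1.53.

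In retinoid handling 3 carriers and enzymes rose steeply, although the list as a whole had 9 of 27 higher and 7 lower (4 and 16 on library totals). Rbp2, a cellular retinol-binding protein, measured 2.27, 2.28 and 2.23 CPM with ethanol and 113, 112 and 130.4 CPM with MC903 (log2 change 5.71, SE 0.1, adjusted p = 6e-12). Lrat, which stores retinol as esters, measured 1.94, 1.8 and 1.49 CPM with ethanol and 28.7, 39.6 and 32.3 CPM with MC903 (log2 change 4.26, SE 0.23, adjusted p = 2e-08). Crabp2, which carries retinoic acid to its receptor, measured 58, 61.8 and 52.3 CPM with ethanol and 354, 333 and 474 CPM with MC903 (log2 change 2.75, SE 0.15, adjusted p = 2.1e-08). No library crossed between the groups in these 3 genes. Aldh1a1, which makes retinoic acid, and Sdr16c6, a retinol dehydrogenase relative, fell by 0.98 and 1.67. Of 25 targets of NRF2, the oxidative stress factor, 18 rose and 4 fell (11 and 9 on library totals and 14 and 7 with the length trend removed). Gsta4, a glutathione transferase for lipid aldehydes, measured 7.5, 9.89 and 9.07 CPM with ethanol and 91.8, 96.8 and 94.6 CPM with MC903 (log2 change 3.42, SE 0.15, adjusted p = 3.2e-09), and the cystine carrier Slc7a11 and haem oxygenase Hmox1 rose by 3.81 and 1.94. Gclc, which starts glutathione synthesis, fell by 0.74. The metal-binding proteins Mt1 and Mt2 rose by 2 and 2.07. In cytochrome P450 family 2, 10 of 16 members were lower and 1 higher: Cyp2j9 measured 15.8, 16.3 and 16.8 CPM with ethanol and 5.82, 7.12 and 4.7 CPM with MC903 (log2 change -1.47, SE 0.16, adjusted p = 4.3e-06), and Ugt1a1, a glucuronidating enzyme, fell by 1.91.

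The dermis and the tissues of the ear ran lower. Of 44 collagen genes 36 fell and 2 rose (median -0.69), and with the length trend removed 19 fell and 4 rose (median -0.31). Col3a1, a main fibrillar collagen, measured 1971, 2143 and 1652 CPM with ethanol and 1032, 1142 and 1039 CPM with MC903 (log2 change -0.84, SE 0.13, adjusted p = 6.9e-05). Col4a5 of basement membranes measured 20.2, 20.9 and 21 CPM with ethanol and 3.38, 4.36 and 3.52 CPM with MC903 (log2 change -2.46, SE 0.15, adjusted p = 4.7e-08). Col6a4 was the gene of the list that rose most, by 4.29. Matrix glycoproteins fell in 23 of 30 cases and rose in 5 (25 and 1 on library totals), with Sparc at 951, 943 and 814 CPM with ethanol and 251, 298 and 243 CPM with MC903 (log2 change -1.77, SE 0.14, adjusted p = 2.7e-07), Postn down by 1.46 and Spp1 up by 1.84. Hyaluronan genes split between 8 higher and 6 lower of 17 (7 and 9 on library totals): Has3, the epidermal hyaluronan synthase, measured 1.68, 1.63 and 2.14 CPM with ethanol and 27, 17.2 and 26.8 CPM with MC903 (log2 change 3.7, SE 0.22, adjusted p = 3.5e-08) and Cd44, its receptor, rose by 1.46. Of 41 matrix protease and inhibitor genes tested 17 fell and 8 rose (median -0.36), against 28 and 7 on library totals. With the length trend removed their median was -0.16. Among them Mmp10 rose by 3.15 and the inhibitor Timp1 by 2.18. Adamts14, which trims procollagen, measured 116, 107 and 129 CPM with ethanol and 39.5, 37 and 42 CPM with MC903 (log2 change -1.57, SE 0.07, adjusted p = 7.1e-09). Schwann cell and myelin genes fell in 15 of 16 cases, muscle genes in 21 of 29 and ear cartilage genes in 15 of 18. Cdh19 of Schwann cell precursors fell by 3.26. Neb, the giant muscle protein nebulin, fell by 2.1, and Lep, leptin of fat cells, by 1.73. Endothelial genes fell in 13 of 22 cases, with the receptor Kdr down by 1.06, while Plvap, of fenestrated vessels, rose by 1.1. These groups moved with the fibroblast, Schwann cell and muscle markers given at the start. Among itch genes 14 of 26 fell and 5 rose (19 and 3 on library totals and 10 and 8 with the length trend removed). Artn, artemin, rose by 2.67, while Trpv3, a heat channel of keratinocytes, fell by 1.55.

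Most core clock genes were lower. Of 17 core clock genes 13 fell and 3 rose on the TMM scale (median -0.61), and on library totals 14 fell and none rose. Per3, with the D-boxes shown above, measured 119, 107 and 115 CPM with ethanol and 38, 35.7 and 37.1 CPM with MC903 (log2 change -1.62, SE 0.1, adjusted p = 5.8e-08). Bhlhe41 and Npas2 fell by 1.43 and 1.63, Per2 by 1.13 and Nr1d2 by 0.9. Of the PAR factors that bind the D-box, Hlf and Tef fell by 1.44 and 1.05, and Nfil3, which competes for it, rose by 1.42. The labels used here give no hour of sampling.

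**Figure D4:**
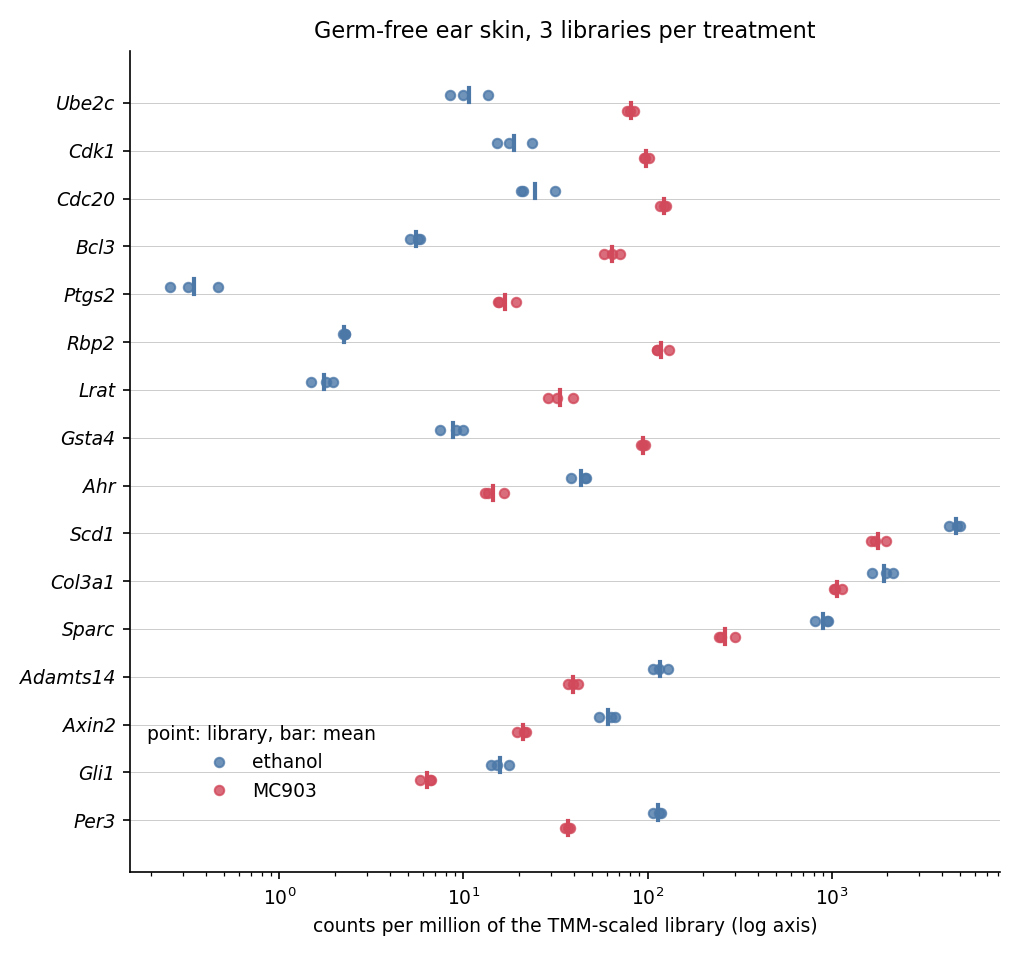
CPM on a log axis in each germ-free library for 16 genes of cell division, signalling, retinoid and lipid handling, matrix and clock, each point 1 library and each bar the mean of 3. The MC903 libraries lie above the ethanol libraries from Ube2c to Gsta4 and below them from Ahr to Per3, without overlap.

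The same treatment in SPF skin moved 9804 genes in the same direction as in germ-free skin and 111 in the opposite one, both past the test. A model term for the difference between the responses passed for 2800 genes (17%), 1276 (7.75%) with a higher change in germ-free skin and 1524 (9.26%) with a lower one, and on library totals 1656 and 1151. Skint genes, butyrophilin-like proteins of epidermis that shape its resident T cells, fell in 9 of 11 cases in germ-free skin (median -1.05) but by more in SPF skin (median -2.76), and 8 of the 11 differed. Skint7 changed by -3.09 in germ-free and -8.73 in SPF skin (difference 5.64, SE 0.76, adjusted p = 0.00053, and 8.51 without SPF MC903 library 2), and Skint5 by -1.67 and -4.12 (difference 2.45, SE 0.2, adjusted p = 3.4e-05). The Skint genes are similar in sequence and their counts uncertain. Krt24 measured 300.1, 356 and 344 CPM with ethanol and 227, 269 and 196 CPM with MC903 and changed by -0.53 in germ-free skin, against -5.97 in SPF skin (difference 5.44, SE 0.2, adjusted p = 3.5e-08), and Krt2 rose by 1.49 against a change of -1.25 (difference 2.73, SE 0.37, adjusted p = 0.00062). Lypd2, a LY6 family protein, changed by -1.06 and -4.39 (difference 3.33, SE 0.53, adjusted p = 0.0015). Wnt10b fell by 2.29 in germ-free skin and changed by -5.59 in SPF skin (difference 3.3, SE 0.61, adjusted p = 0.0035, and between 2.67 and 4.04 when single SPF MC903 libraries were left out). In the other direction Fosl1 rose by 2.22 against 5.51 (difference -3.29, SE 0.44, adjusted p = 0.00053) and Ptgs2 by 5.6 against 8.62 (difference -3.03, SE 0.4, adjusted p = 0.0005, and adjusted p = 0.057 in limma voom). In the stress response list the change with MC903 was lower in germ-free than in SPF skin for 19 of 29 genes past the test. It was higher for none. All 5 genes of the wound keratin list rose by less in germ-free skin past the test.

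**Figure D5:**
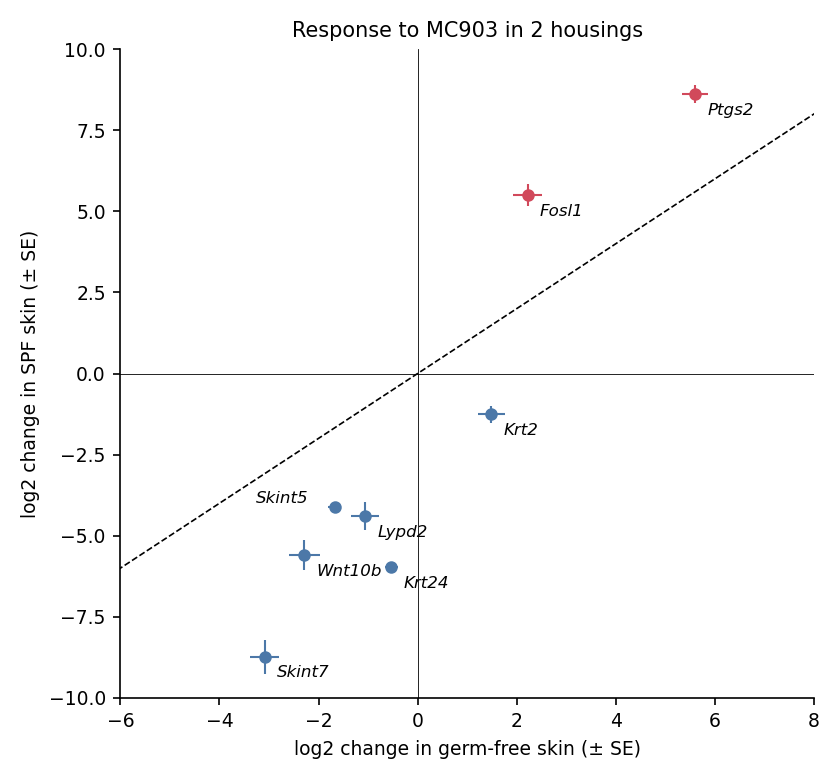
Log2 change with MC903 in germ-free (x axis) and SPF (y axis) skin for the 8 genes whose difference is given in the text, with SE bars and the line of equal change. Skint7, Skint5, Krt24, Krt2, Lypd2 and Wnt10b lie below the line and Fosl1 and Ptgs2 above it.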

How the data were processed

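Ear skin RNA was sequenced in 12 libraries, 3 for each of 4 groups. Per the submitters' processing notes, HISAT2 2.1.0 and StringTie 1.3.4d were used on the mm10 build; the annotation and the use of strand were not given in the sources used here. The authors deposited estimated counts, as whole numbers, and FPKM per gene. Counts were fitted as deposited with edgeR 4.0.16 (all 12 libraries, 1 coefficient per group, TMM factors, genes kept at a minimum count of 10 and total of 15) and tested by quasi-likelihood. FPKM served for levels between genes and for an implied length. The script was tested on simulated data with 16232 genes, where 92% of 100 2-fold and 99% of 98 4-fold changes were found, with 5.03% false calls. With so few genes changed, the scaling where most genes differ was not tested. Alternatives are in the closing section. Members and gene lists were chosen with earlier results of these data known. Named genes are the 15 largest changes in each direction, up to 6 rises and falls and the 3 most abundant members of each of 90 lists, any member of a list of at most 16, and fixed defining genes; some are not reported here. Promoters are RefSeq's on GRCm38.p6 (12897 tested genes matched), and 24462 genes matched RefSeq by ID.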

Additional observations from a re-analysis of the deposited data

Results flagged for a closer look

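For 8 named genes the change with MC903 in germ-free skin differed from that in SPF skin in a direct test of the difference (edgeR's quasi-likelihood test, Benjamini-Hochberg adjustment over all tested genes). The difference, germ-free minus SPF in log2 units, was 5.64 for Skint7, 2.45 for Skint5, 5.44 for Krt24, 2.73 for Krt2, 3.33 for Lypd2 and 3.30 for Wnt10b. It was -3.29 for Fosl1 and -3.03 for Ptgs2. With 3 libraries a group no library was tested as an outlier.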

How the results depend on the processing

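On library totals 2795 genes rose and 9697 fell, against 5497 and 5777 on the TMM scale, and 8 of the 55 group medians changed sign, 54 moving by more than the members' median SE. Removing the length trend moved 40 of them by as much and turned the sign of 6, and the stricter filter moved 13 and turned 3. Under the other alternatives for the germ-free response (RLE size factors, no filter, a stricter filter, DESeq2, limma voom, germ-free libraries only, replicate block, gene length trend removed) each count over all genes stayed within 1.5 times. Leaving out 1 library at a time gave 10371 to 11390 called, 5160 to 5546 higher and 5203 to 5849 lower. The count for the difference between responses ran from 2129 to 2765 called, 922 to 1306 higher and 1176 to 1459 lower. Of 216 genes named and tested, 211 kept their direction and their side of the threshold under every alternative run. The exceptions were Vdr (0.22 with the length trend removed, and past the test at -0.16 under the stricter filter), Krt5, Krt10 and Atp2b1 on library totals, and Rps27, whose adjusted p was 0.12 in limma voom and 0.065 with the replicate block. The cause was not tested.

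Germ-free libraries of equal number showed little correlation of their deviations from the group means (0.02, -0.02 and 0 for numbers 1, 4 and 5). In SPF skin the values were 0.01, 0.07 and 0.14 for numbers 1, 2 and 3. Such values cannot show whether equal numbers share a mouse, which the labels do not say. With the replicate block 11072 genes were called, 5412 higher and 5660 lower, and 2303 for the difference between responses. Counting error limits genes such as Sprr2k and Naip1, with 2 and 0 counts over the ethanol libraries.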
